A study of Mus musculus with 8 samples.

Results

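The genes examined were the 10 thermogenic identity and adrenergic genes Ucp1, Dio2, Ppargc1a, Ppargc1b, Prdm16, Ebf2, Adrb3, Adrb1, Adcy3 and Zic1, taken by symbol from the 31053 genes of a bulk RNA-seq count table as a list of known thermogenic and beta-adrenergic genes, and each of the 10 was among the 8930 genes with enough counts to be tested. The tissue was brown adipose tissue (BAT) of C57BL6/J mice, for which the labels give an age of 10 weeks and the legend of the study another age, and all mice of the study were male. 4 WT mice were compared with 4 mice labelled ATGLKO and Ucp1Δ/Δ, in which Pnpla2, the gene of the lipase ATGL that starts triglyceride breakdown, is deleted by a Cre recombinase under Ucp1 regulatory sequence. The name Ucp1Δ/Δ refers to that driver and not to a deletion of Ucp1, recombination is limited to cells that have used the Ucp1 sequence, and whether the WT mice carried Cre or floxed alleles is not given in the sources used here.

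Brown adipocytes burn fatty acids to make heat. Noradrenaline from sympathetic nerves binds beta-adrenergic receptors, of which Adrb3 is the one typical of adipocytes and Adrb1 is shared with the heart and with precursor cells, and adenylyl cyclases such as Adcy3 then make cAMP, which activates protein kinase A. Protein kinase A releases fatty acids and, through CREB family factors, raises transcription of Ucp1, the uncoupling protein that turns the proton gradient into heat, of Dio2, the deiodinase that makes active thyroid hormone inside the cell, and of the coactivator Ppargc1a. Prdm16 and Ebf2 set the brown adipocyte fate, Ppargc1b is a relative of Ppargc1a that acts on mitochondrial genes, and Zic1 is a transcription factor used as a marker of the classical brown depot.

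Since cAMP acts on several of these genes through the cAMP response element, the sequence just before their start sites is shown for the members that hold its core letters. RefSeq windows for GRCm38.p6, the build of the count table, were used for 7 of the 10 genes. Within the 250 bases before the start, the core TGACG on either strand was found in 4 of the 7, namely Dio2, Ucp1, Ppargc1a and Adrb1, and in 17.8% of all 32851 windows of this length. The full palindrome TGACGTCA, which holds the core on both strands, was found in 1 member, Dio2, and in 1.55% of all windows. Prdm16, Adcy3 and Zic1 had windows without these letters, and Ppargc1b, Ebf2 and Adrb3 are named only. The 4 sequences run 5′ to 3′ on the strand of the gene and end at the base before the RefSeq start, with the matched letters in capitals. The 4 windows lie at chr12:90739039-90739288 on the minus strand for Dio2, chr8:83290098-83290347 on the plus strand for Ucp1, chr5:51567726-51567975 on the minus strand for Ppargc1a and chr19:56721867-56722116 on the plus strand for Adrb1.
Dio2: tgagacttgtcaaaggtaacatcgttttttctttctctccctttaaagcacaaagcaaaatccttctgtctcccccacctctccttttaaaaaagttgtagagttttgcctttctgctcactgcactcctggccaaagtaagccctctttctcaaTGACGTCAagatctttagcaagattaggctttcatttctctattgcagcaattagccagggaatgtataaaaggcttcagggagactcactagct
Ucp1: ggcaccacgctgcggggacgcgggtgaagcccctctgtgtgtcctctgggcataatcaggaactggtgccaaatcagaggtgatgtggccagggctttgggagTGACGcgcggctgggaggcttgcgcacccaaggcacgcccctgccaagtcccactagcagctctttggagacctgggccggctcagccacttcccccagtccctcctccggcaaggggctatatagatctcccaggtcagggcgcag
Ppargc1a: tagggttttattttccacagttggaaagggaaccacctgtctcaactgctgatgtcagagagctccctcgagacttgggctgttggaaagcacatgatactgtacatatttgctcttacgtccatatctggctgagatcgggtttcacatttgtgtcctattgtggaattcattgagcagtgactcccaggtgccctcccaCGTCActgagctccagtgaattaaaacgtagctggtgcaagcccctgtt
Adrb1: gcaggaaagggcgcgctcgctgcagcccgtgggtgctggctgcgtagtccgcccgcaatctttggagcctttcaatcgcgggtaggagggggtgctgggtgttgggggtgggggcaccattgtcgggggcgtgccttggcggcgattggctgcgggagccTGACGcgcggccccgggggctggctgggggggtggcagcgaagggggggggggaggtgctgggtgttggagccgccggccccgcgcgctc
The Dio2 match spans the bases from 95 to 88 before the start, the Ucp1 match begins 147 bases before it, the Ppargc1a match 49 bases and the Adrb1 match 90 bases before it. G and C make up 41.6% of the Dio2 window, 48% of the Ppargc1a window, 64.8% of the Ucp1 window and 74% of the Adrb1 window. The RefSeq start of Dio2 lies upstream of the gene as GENCODE gives it. These matches describe the letters only, and binding was not measured.

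Dio2 was higher in ATGLKO mice and was the only one of the 10 genes to pass an adjusted p of 0.05, while Ucp1, the 2 coactivators, the identity factors and Adcy3 were not distinguishable between genotypes at this depth and Adrb3 lay just beyond the threshold with a lower level. This makes 1 of 10 members called, against 21.0% of all genes tested, 13.3% called higher and 7.63% called lower (quasi-likelihood test of edgeR, p-values adjusted by the method of Benjamini and Hochberg over all genes), so the members held no larger share of calls than the table as a whole. The median log2 fold change of the members, ATGLKO over WT, was -0.22, beside -0.01 over all genes tested. The single call depended on the mice included, since Dio2 was no longer called without WT replicate 1 or without ATGLKO replicate 3, and Adrb3 was called beside Dio2, with a lower level, without WT replicate 4.

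Libraries held 2017697 to 3115956 counts, with no separation of genotypes, and 3 counts, the limit that a count of 0 allows, corresponded to 0.933 to 1.53 CPM (counts scaled to library size), covering counting error only. Pnpla2 itself fell in every ATGLKO mouse, from 2701 to 3152 CPM in WT to 403 to 531 CPM, so the libraries carried their labels; gene counts cannot say whether the remaining reads came from other cells or from transcripts that keep the counted part. The labels also give stromal vascular fraction, the cells left after adipocytes are removed, as the cell type, yet adipocyte transcripts were abundant in all 8 libraries, with 574 to 1416 CPM for Adipoq and 1291 to 4110 CPM for Ucp1. Macrophage markers differed with genotype, with 16 of 17 tested genes higher in ATGLKO and a summed level of 138 to 216 CPM in WT against 1419 to 2552 CPM, while Adgre1 was at 0 in WT replicate 1. Fibroblast and progenitor markers had 12 of 13 tested genes higher (688 to 1072 against 1948 to 3338 CPM, Pdgfra at 0 in WT replicate 4) and endothelial markers 3 of 12 (400 to 529 against 556 to 664 CPM). Of the 17 mature adipocyte markers 1 was higher and 7 were lower, and their summed level was 20574 to 25511 CPM in WT and 15992 to 19534 CPM in ATGLKO. The shares called were 94.1% of macrophage, 92.3% of fibroblast and progenitor and 47.1% of mature adipocyte markers, beside 21.0% of all genes. For endothelial markers the share was 25%, near that of all genes, and 9 were not called. Skeletal muscle markers varied between mice of both genotypes, from 119 to 2195 CPM in WT and from 158 to 3029 CPM in ATGLKO, with none of the 13 tested called (edgeR; 0 at an unadjusted p under 0.05 and 0 by DESeq2) and Ckm at 0 in WT replicate 3, and nerve markers summed to 27.5 to 48.8 CPM in WT and 29.4 to 56.9 CPM in ATGLKO. In bulk tissue, fewer brown adipocytes and less RNA of a gene per adipocyte cannot be told apart.

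**Figure D1:**
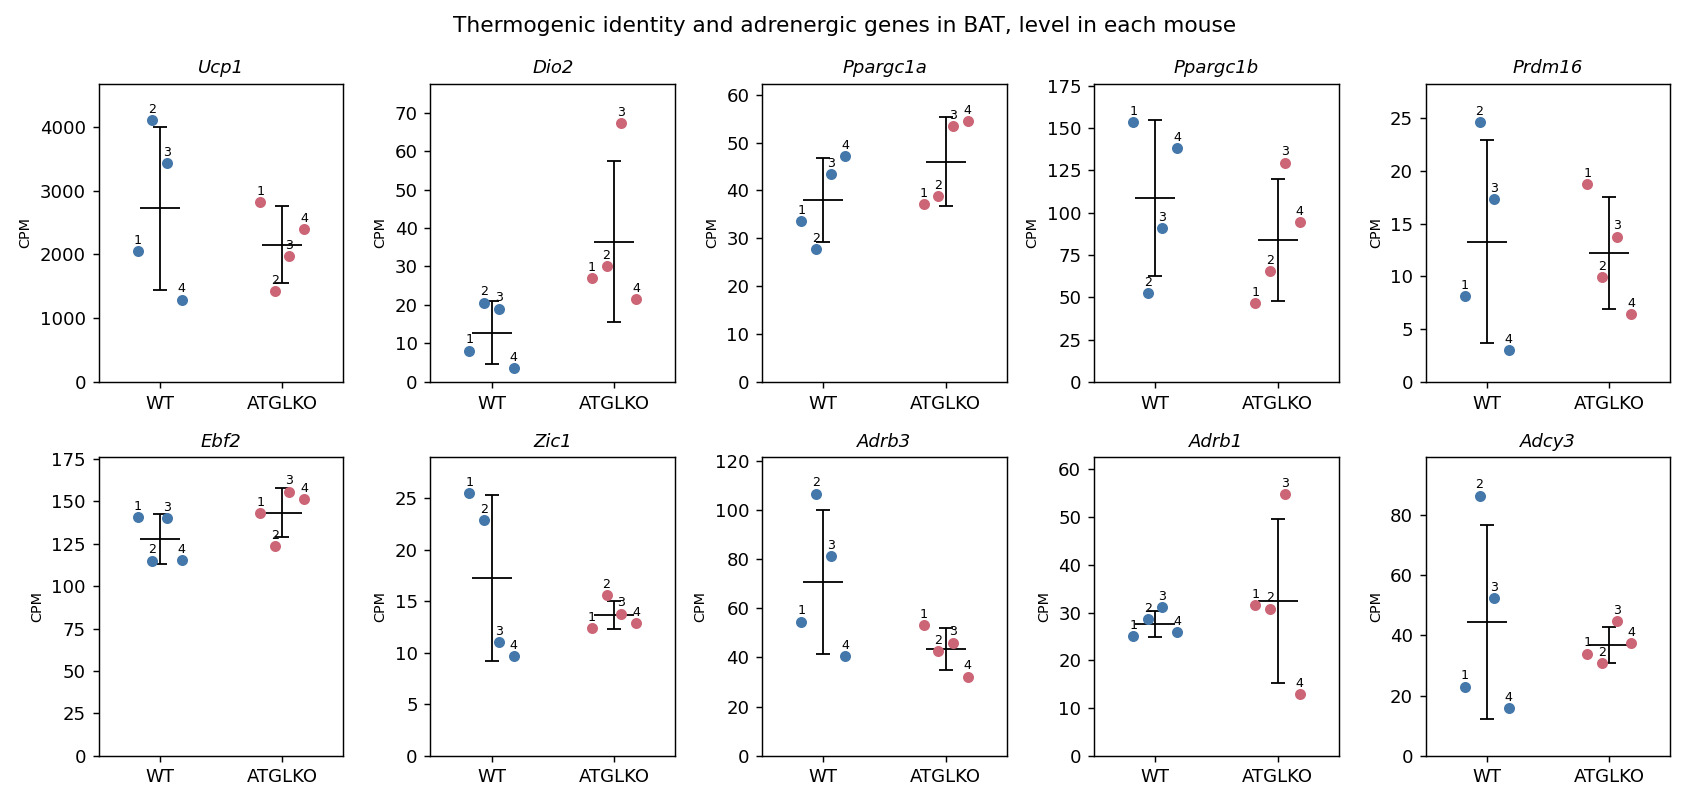
Level of each of the 10 genes in CPM (vertical axes, from 0) in the 4 WT mice (blue) and the 4 ATGLKO mice (red), with the replicate number above each point, a horizontal line at the group mean and bars of 1 SD. The ATGLKO points lie above all WT points for Dio2 only, from 21.5 to 67.3 CPM against 3.55 to 20.6 CPM.

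Ucp1 (ENSMUSG00000031710), on the plus strand of chromosome 8 from 83290352 to 83298452 in GENCODE annotation of mm10, was the most abundant of the 10 genes per length of exon. Its level was 2051, 4110, 3426 and 1291 CPM in WT replicates 1 to 4 and 2821, 1421, 1972 and 2394 CPM in ATGLKO replicates 1 to 4. The WT mice spanned the range of the ATGLKO mice on both sides, with a highest to lowest ratio of 3.18 in WT and 1.98 in ATGLKO. Group means were 2719 ± 1281 CPM (SD, n = 4) in WT and 2152 ± 598 CPM (SD, n = 4) in ATGLKO, and the log2 fold change was -0.34 (SE 0.30, adjusted p = 0.481 from edgeR's test). The interval of the fold, 0.507 to 1.23 at 95%, includes differences in both directions, so the counts do not show that Ucp1 was the same in both genotypes. Scaled to the mature adipocyte markers, the log2 fold change of Ucp1 was 0.14, on a scale where the median of all genes was 0.43.

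Dio2 (ENSMUSG00000007682) lies on the minus strand of chromosome 12 from 90724552 to 90738438. The WT mice had 8.16, 20.6, 19.0 and 3.55 CPM and the ATGLKO mice 26.9, 30.2, 67.3 and 21.5 CPM in replicates 1 to 4. Each ATGLKO mouse was above each WT mouse, the lowest of them by a small margin and replicate 3 by a wide one, and 14.4% of all tested genes were likewise without overlap with ATGLKO above. The means were 12.8 ± 8.31 CPM (SD, n = 4) in WT and 36.5 ± 20.9 CPM (SD, n = 4) in ATGLKO, a fitted fold of 2.74 with a 95% interval of 1.47 to 5.12 (log2 fold change 1.45, SE 0.42, adjusted p = 0.0231 from edgeR's test). A two-sided exact permutation test of log2 CPM gave p = 0.0286, or 0.286 when adjusted over the 10 members. The unadjusted value is the smallest that 4 mice against 4 allow, and a gene without overlap gives it, so it adds nothing to the lack of overlap. These levels rest on few reads, from 7 counts in WT replicate 4 to 161 in ATGLKO replicate 3. The exact Poisson interval of WT replicate 2, 15.1 to 27.5 CPM, overlapped that of ATGLKO replicate 4, 15.9 to 28.3 CPM, where the genotypes came closest. Without ATGLKO replicate 3 the log2 fold change was 1.0 (adjusted p = 0.0864), and without WT replicate 1 it was 1.29 (adjusted p = 0.0698), within a range of adjusted p from 9.73e-07 to 0.0864 over all alternatives. The higher Dio2 level accompanied higher summed levels of macrophage, fibroblast and endothelial markers and lower summed adipocyte markers, given above, whose part in the result was not tested.

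Set against Ucp1 in the same mouse, Dio2 was higher in each ATGLKO mouse, a ratio chosen after the values were seen that uses the same Dio2 counts and so adds no separate evidence. WT replicates 1 to 4 had 3.98, 5.01, 5.56 and 2.75 Dio2 counts per 1000 Ucp1 counts. In ATGLKO replicates 1 to 4 there were 9.53, 21.2, 34.1 and 8.97. The 4 WT ratios lay close together although both genes varied several-fold between these mice, and the lowest ATGLKO ratio exceeded the highest WT ratio. The mean log2 ratio differed by 1.92, given as a description.

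**Figure D2:**
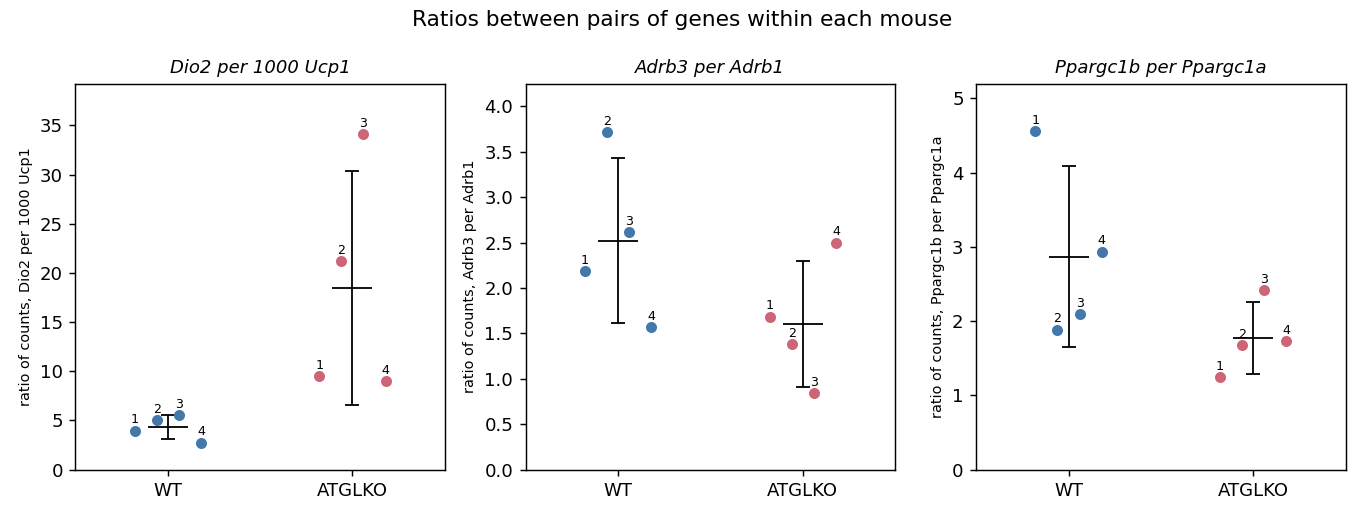
Ratio of the counts of 2 genes in the same library (vertical axes, from 0) for Dio2 per 1000 Ucp1, Adrb3 per Adrb1 and Ppargc1b per Ppargc1a, with each WT mouse in blue and each ATGLKO mouse in red, numbered by replicate, and mean and SD in black. WT and ATGLKO do not overlap for Dio2 per 1000 Ucp1 (2.75 to 5.56 against 8.97 to 34.1) and overlap for the other 2 ratios.

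The coactivators Ppargc1a and Ppargc1b had fold changes of opposite sign, neither of which passed the test. Ppargc1a (ENSMUSG00000029167; chromosome 5, 51454250 to 51567726, minus strand), which coactivates the receptors that turn on Ucp1 and mitochondrial biogenesis, had 33.7, 27.8, 43.4 and 47.1 CPM in WT replicates 1 to 4 and 37.1, 38.9, 53.5 and 54.5 CPM in ATGLKO replicates 1 to 4. The groups overlapped and Ppargc1a varied less than most members, by at most 1.70 times within a genotype. Its fitted fold was 1.21, with a 95% interval of 0.886 to 1.64 (adjusted p = 0.407, edgeR). Ppargc1b (ENSMUSG00000033871; chromosome 18, 61298136 to 61400431, minus strand) had 153, 52.4, 90.8 and 138 CPM in WT replicates 1 to 4 and 46.3, 65.3, 130 and 94.4 CPM in ATGLKO replicates 1 to 4. WT replicate 2, the mouse with the most Ucp1, had the lowest Ppargc1b level of the WT mice, and the highest level was in WT replicate 1. The fitted fold was 0.771 (95% interval 0.478 to 1.24, adjusted p = 0.465, edgeR). Within each mouse there were 1.89 to 4.56 Ppargc1b counts per Ppargc1a count in WT and 1.25 to 2.42 in ATGLKO, which overlapped (exact permutation test of the log2 ratio, two-sided, p = 0.143, 0.2 adjusted over the 3 ratios).

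Among the identity factors, neither Ebf2, Prdm16 nor Zic1 passed the test, and they differed widely in how much the mice varied. Ebf2 (ENSMUSG00000022053; chromosome 14, 67233292 to 67430918, plus strand), which opens brown adipocyte enhancers and is also expressed in precursor cells, had 141, 115, 140 and 115 CPM in WT replicates 1 to 4 and 143, 124, 156 and 152 CPM in ATGLKO replicates 1 to 4. Highest and lowest mouse differed by 1.22 times in WT and 1.26 times in ATGLKO, and the groups overlapped. Its fold was 1.12 with the narrowest interval of the 10 genes, 0.883 to 1.42 (adjusted p = 0.529, edgeR). Scaling to the mature adipocyte markers gave Ebf2 a log2 fold change of 0.60 (adjusted p = 0.0262, against 0.0262 to 0.702 over its alternatives), beside a median of 0.43 over all genes on that scale.

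Prdm16 (ENSMUSG00000039410; chromosome 4, 154316125 to 154636873, minus strand), the zinc finger cofactor that keeps brown adipocytes from a muscle or white fate, had 8.16, 24.6, 17.4 and 3.04 CPM in WT replicates 1 to 4. The ATGLKO replicates 1 to 4 had 18.8, 9.96, 13.8 and 6.44 CPM. The WT mice differed among themselves by 8.11 times, the widest range of any member, and enclosed all ATGLKO values. WT replicate 4 had only 6 counts of Prdm16, with an exact Poisson interval of 1.12 to 6.62 CPM, below the 18.6 to 32.1 CPM of WT replicate 2, so counting error does not cover this range. The fold was 0.903 (95% interval 0.470 to 1.73, adjusted p = 0.855, edgeR), and its sign changed without WT replicate 2, without WT replicate 3 and without ATGLKO replicate 4.

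Zic1 (ENSMUSG00000032368; chromosome 9, 91358058 to 91365810, minus strand) had 25.5, 22.8, 11.02 and 9.62 CPM in WT replicates 1 to 4 and 12.4, 15.6, 13.8 and 12.9 CPM in ATGLKO replicates 1 to 4. The ATGLKO mice lay within 1.26 times of each other and inside the WT range, with WT replicates 1 and 2 above them and WT replicates 3 and 4 below. The fold was 0.802 (95% interval 0.520 to 1.24, adjusted p = 0.497, edgeR). For Zic1, WT replicates 2 and 3 were not both high as they were for Ucp1 and Prdm16.

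Neither of the receptors passed the test, although the interval of Adrb3 lay below a fold of 1. Adrb3 (ENSMUSG00000031489; chromosome 8, 27225776 to 27250616, minus strand) had 54.6, 107, 81.1 and 40.5 CPM in WT replicates 1 to 4 and 53.1, 42.6, 46.0 and 32.2 CPM in ATGLKO replicates 1 to 4. WT replicates 2 and 3 were above all ATGLKO mice and WT replicates 1 and 4 were among them. With means of 70.7 ± 29.3 CPM in WT and 43.5 ± 8.69 CPM in ATGLKO (SD, n = 4 each), the log2 fold change was -0.70 (SE 0.26, adjusted p = 0.0661, edgeR), a fold of 0.613 with a 95% interval of 0.419 to 0.898. This missed the threshold, and a two-sided exact permutation test gave p = 0.171. Its adjusted p was 0.00954 without WT replicate 4, 0.00579 when every gene with at least 1 count was kept, and up to 0.451 under the other alternatives, with a negative log2 fold change under each of the 21. Of the exon bases of Adrb3, 24.9% are shared with the antisense gene Gm45470, and whether the counting used strand is not given in the sources used here.

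Adrb1 (ENSMUSG00000035283; chromosome 19, 56722199 to 56733113, plus strand) had 25.0, 28.7, 31.1 and 25.8 CPM in WT replicates 1 to 4, the narrowest highest to lowest ratio in WT after Ebf2. In ATGLKO replicates 1 to 4 the values were 31.5, 30.8, 54.7 and 12.9 CPM, which reached above and below every WT mouse and spread by 4.25 times. The fold was 1.17 (95% interval 0.747 to 1.83, adjusted p = 0.652, edgeR), with the opposite sign without ATGLKO replicate 3 (log2 fold change -0.12). That mouse had the highest level of both Dio2 and Adrb1. Per Adrb1 count there were 1.57 to 3.72 Adrb3 counts in WT and 0.840 to 2.50 in ATGLKO, which overlapped (two-sided exact permutation test of the log2 ratio, p = 0.2, unchanged when adjusted over the 3 ratios).

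Adcy3 (ENSMUSG00000020654; chromosome 12, 4133103 to 4213525, plus strand), the adenylyl cyclase induced with thermogenic activity, had 22.9, 86.5, 52.4 and 15.7 CPM in WT replicates 1 to 4. The ATGLKO mice were close together at 34.0, 30.8, 44.7 and 37.3 CPM, all inside the WT range. Highest and lowest mouse differed by 5.51 times in WT and 1.45 times in ATGLKO. The fold was 0.817 (95% interval 0.471 to 1.42, adjusted p = 0.637, edgeR), and the log2 fold change was 0.22 without WT replicate 2. Exons of Cenpo on the opposite strand share 22.1% of the Adcy3 exon bases.

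**Figure D3:**
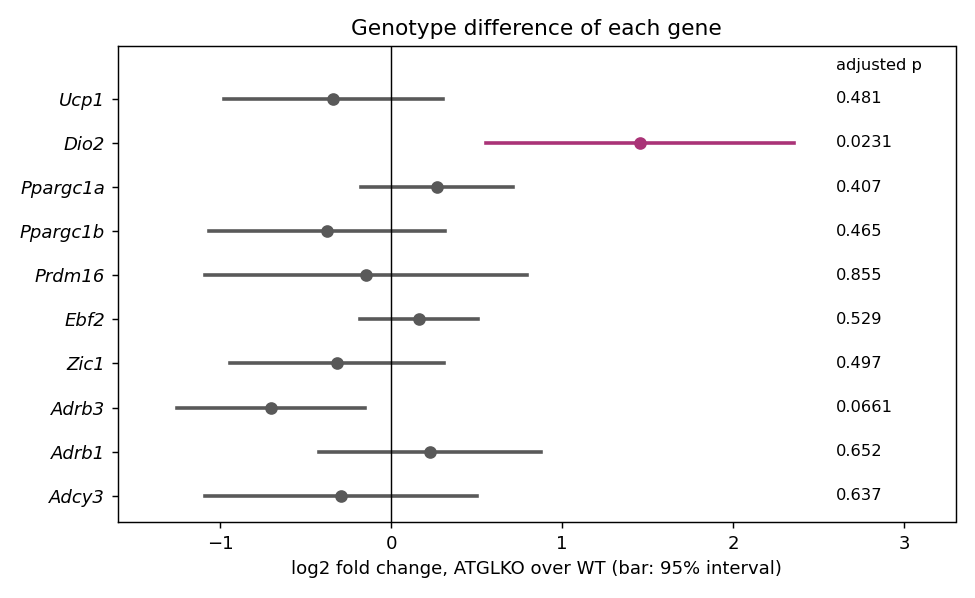
Log2 fold change of each gene, ATGLKO over WT, with its 95% interval (horizontal axis) and the adjusted p of edgeR's test at the right, with Dio2, the gene under 0.05, in purple. The intervals of Dio2 and Adrb3 leave out 0, at folds of 1.47 to 5.12 and 0.419 to 0.898, and the other 8 include it.

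Per kilobase of exon, the order of the members was nearly the same in both genotypes. In WT, Ucp1 had 1662 CPM per kb, followed by Ppargc1b at 27.3, Adrb3 at 20.9, Ebf2 at 18.5, Adrb1 at 8.17, Adcy3 at 7.11, Ppargc1a at 5.76, Zic1 at 3.03, Dio2 at 2.21 and Prdm16 at 1.43. Of the neighbours in this order, only Ucp1 with Ppargc1b and Ebf2 with Adrb1 had ranges over the 4 WT mice that did not overlap. In ATGLKO, Ucp1 had 1315 CPM per kb, Ppargc1b 21.0, Ebf2 20.7, Adrb3 12.9, Adrb1 9.60, Ppargc1a 6.98, Dio2 6.27, Adcy3 5.88, Zic1 2.40 and Prdm16 1.31. Dio2 thus stood ninth in WT and seventh in ATGLKO, where its range overlapped those of Ppargc1a and Adcy3. The libraries came from a digital mRNA-seq service, and whether its reads cover the whole transcript is not given in the sources used here, so levels per length are approximate.

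For several members the 4 WT mice differed among themselves by more than the means of the genotypes did. WT replicates 2 and 3 were both above replicates 1 and 4 for 6 of the 10 members, Ucp1, Dio2, Prdm16, Adrb3, Adrb1 and Adcy3, and both below them for Ppargc1b, beside 22.9% and 21.3% of all genes tested with these orders. The SD of log2 CPM over the WT mice was 1.21 for Prdm16, 1.09 for Adcy3, 1.08 for Dio2, 0.75 for Ucp1 and 0.61 for Adrb3, against a median of 0.32 over the 6428 genes with a mean of at least 10 CPM. Ebf2 (0.16) and Adrb1 (0.14) lay below that median. In ATGLKO mice the SD was lower than in WT for every member except Adrb1 (0.83), and the median over genes was lower too, at 0.23. It was 0.70 for Dio2, 0.61 for Prdm16, 0.42 for Ucp1, 0.30 for Adrb3, 0.22 for Adcy3 and 0.14 for Zic1. Over the 8 mice, log2 CPM of Ucp1 correlated with that of Adcy3 (r = 0.835), Prdm16 (r = 0.80) and Adrb3 (r = 0.76), and Prdm16 with Adcy3 (r = 0.85). Ppargc1b ran the other way, with r = -0.66 for Prdm16 and -0.51 for Ucp1, and Ppargc1a had r = -0.73 with Adrb3. Dio2 and Adrb3 had r = 0.05 over the 8 mice and r = 0.83 once the mean of each genotype was subtracted. These are descriptions over mice that share a genotype mean, library depth and dissection, and carry no test.

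2 features of the libraries followed the same mice. The share of counts in nuclear genes with transcripts under 1 kb in WT replicates 1 to 4 was 7.7%, 9.06%, 8.25% and 5.64%, that in ATGLKO replicates 1 to 4 was 8.22%, 7.32%, 7.97% and 6.09%, and its correlation over the 8 mice with log2 CPM was 0.95 for Prdm16, 0.83 for Adrb3, 0.75 for Adcy3 and 0.73 for Ucp1. The summed skeletal muscle markers were 2195, 250, 119 and 1040 CPM in WT replicates 1 to 4, high in the mice that were low in Ucp1, with r = -0.63 for Ucp1 and -0.66 for Adcy3 over the 8 mice. With the short transcript share as a covariate, chosen after the data were seen, Adrb3 was called (log2 fold change -0.54, adjusted p = 0.014) and Dio2 stayed called. With the muscle level as a covariate Dio2 alone was called. The part of these features in the spread among WT mice was not tested.

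**Figure D4:**
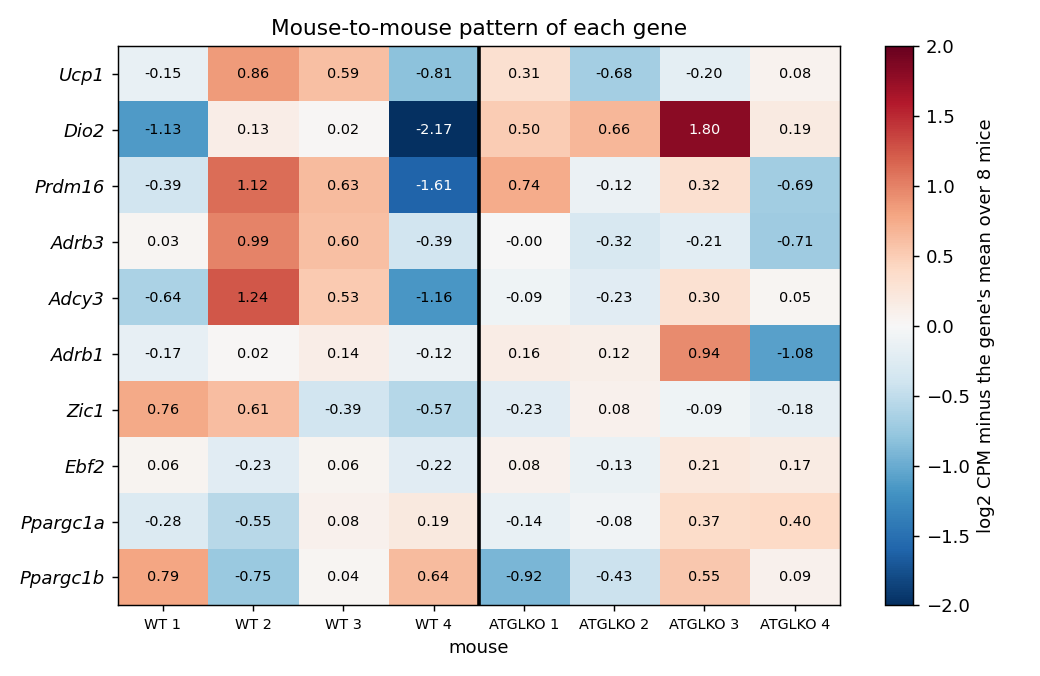
Log2 CPM of each gene (rows) in each mouse (columns, WT left and ATGLKO right of the line) minus its mean over the 8 mice, in colour and as printed values. Red cells of WT replicates 2 and 3 and blue cells of WT replicate 4 line up for Ucp1, Prdm16, Adrb3 and Adcy3, whose pairwise correlations with Ucp1 were 0.76 to 0.835, while Ppargc1b is lowest among the WT mice in replicate 2.

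The genes whose log2 CPM most resembled that of a member over the 8 mice, among genes with a mean of at least 10 CPM, are given with Pearson's r as a description. They were the highest of 6428 genes searched over only 8 mice, so high values of r are to be found by the search itself. Adrb3 and Prdm16 also followed the short transcript share (r = 0.83 and 0.95), whose part in these likenesses was not tested. For Ucp1 they were Wdr18 (0.963), Ubxn8 (0.962) and Plin5 (0.957), the perilipin of oxidative tissues that joins lipid droplets to mitochondria. Adrb3 was most like Hcfc1r1 (0.980) and the respiratory complex I subunits Ndufa7 (0.978) and Ndufb2 (0.978). Prdm16 was most like Flad1 (0.984), Stoml2 (0.982) and Nhp2 (0.972), and Adcy3 like Trappc2l (0.987), BC003965 (0.985) and B4gat1 (0.980). Dio2 had Lgr6 (0.983), Scpep1 (0.963) and Snx4 (0.961), of which Snx4 was called higher in ATGLKO (log2 fold change 0.76, adjusted p = 0.0481, edgeR). Ppargc1a was nearest to Kitl (0.960), Sspn (0.949) and Itga1 (0.928), and Ppargc1b to Brd8 (0.923), 1700020I14Rik (0.921) and Ankrd26 (0.920). Ebf2 was like Mettl1 (0.921) and Atg2a (0.903), the 3 for Adrb1 were Pim3 (0.952), Mepce (0.921) and Triap1 (0.904), and those for Zic1 were Casp6 (0.978), Pdss2 (0.920) and Ubac2 (0.916).

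Genes called downstream of the receptors fell on both sides, at a share near that of all genes. Of 55 other genes of catecholamine and cAMP signalling, 38 were tested, of which 5 were higher and 5 lower in ATGLKO and 28 were not called (26.3% called beside 21.0% of all genes), with a median log2 fold change of 0.11. Scaled to the mature adipocyte markers, 17 were called, 14 of them higher. The lower genes included both subunits typical of adipocyte protein kinase A. Prkar2b, the regulatory subunit, had 723 to 1163 CPM in WT and 335 to 550 CPM in ATGLKO without overlap (log2 fold change -1.07, SE 0.19, adjusted p = 0.000933, edgeR). Of all tested genes, 9.37% were without overlap with ATGLKO below. Prkaca, the catalytic subunit, had 149 to 215 CPM in WT and 86.3 to 128 CPM in ATGLKO (log2 fold change -0.83, adjusted p = 0.00431). Pde3b, the phosphodiesterase through which insulin lowers cAMP, fell from 456 ± 75.1 to 229 ± 27.3 CPM (SD, n = 4; log2 fold change -0.99, adjusted p = 0.000656). Rgs2, which speeds the shut-off of G protein signals, fell from 1589 ± 195 to 646 ± 130 CPM (adjusted p = 0.000104).

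The 3 higher genes of the chain with the smallest adjusted p were Adcy7, Pde4b and Arrb2. Adcy7, a cyclase abundant in blood cells, rose from 1.02 ± 1.08 to 6.79 ± 2.14 CPM (SD, n = 4; adjusted p = 0.00161, edgeR), with no count in WT replicate 1. Pde4b, a phosphodiesterase prominent in immune cells, rose from 7.42 ± 2.89 to 21.7 ± 4.53 CPM (adjusted p = 0.00115), and Arrb2, an arrestin that uncouples receptors, from 7.44 ± 0.947 to 20.7 ± 4.17 CPM (adjusted p = 0.000313). These 3 moved together with the macrophage markers, whose summed level rose in the same mice, and the part of macrophages in them was not tested. Gnas, the stimulatory G protein, had 1830 ± 359 CPM in WT and 1598 ± 378 CPM in ATGLKO (adjusted p = 0.553), and Adra1a, the alpha receptor of brown adipocytes, had 59.5 ± 7.93 and 64.1 ± 4.97 CPM (adjusted p = 0.699).

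**Figure D5:**
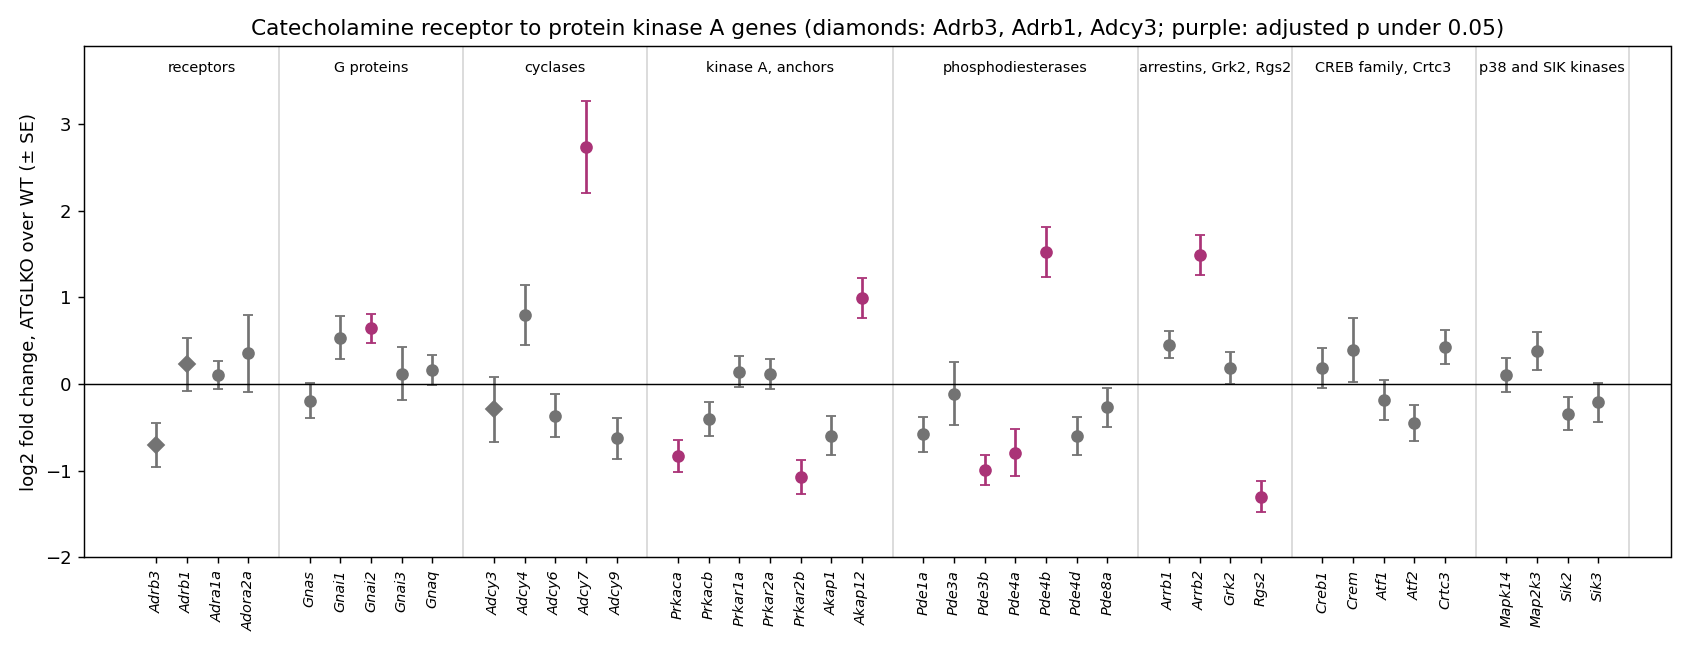
Log2 fold change, ATGLKO over WT, with its SE (vertical axis) for the 38 tested genes of the signalling list and for Adrb3, Adrb1 and Adcy3 (diamonds), grouped by step, with genes under an adjusted p of 0.05 in purple. Prkaca, Prkar2b, Pde3b and Rgs2 lie below 0 and Adcy7, Pde4b and Arrb2 above it, at log2 fold changes of -1.30 to -0.83 and 1.49 to 2.74.

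Of 49 further transcription regulators of the brown adipocyte programme, 43 were tested, of which 3 were higher and 4 lower and 36 were not called (16.3% called beside 21.0% of all genes, median log2 fold change -0.02). Without WT replicate 3 the calls were 4 and without ATGLKO replicate 1 they were 3, against 11 without WT replicate 4. Esrra, a nuclear receptor that acts with Ppargc1a and Ppargc1b on mitochondrial genes, had 14.8 to 43.9 CPM in WT and 7.30 to 12.4 CPM in ATGLKO without overlap (log2 fold change -1.38, SE 0.32, adjusted p = 0.00611, edgeR). Ppara, the fatty acid receptor of oxidative tissues, fell from 203 ± 48.6 to 94.9 ± 34.2 CPM (adjusted p = 0.00476), and Rb1 from 32.1 ± 1.99 to 20.7 ± 3.39 CPM (adjusted p = 0.0268). Foxp1, a repressor of brown and beige thermogenesis, rose from 42.3 ± 7.32 to 80.3 ± 8.67 CPM (adjusted p = 0.00119), Cebpd from 7.30 ± 3.09 to 16.5 ± 6.77 CPM (adjusted p = 0.0172) and Lhx8 from 2.55 ± 1.26 to 6.12 ± 2.15 CPM (adjusted p = 0.0384).

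Brown adipocyte effectors, here other genes with high or selective expression in brown adipocytes, were examined as a list. Of 46 listed, 41 were tested, 13 were lower, 5 were higher and 23 were not called (43.9% called beside 21.0% of all genes), with a median log2 fold change of -0.31. This count depended on scaling: relative to the mature adipocyte markers 4 were lower and 6 higher. Cidea, a lipid droplet protein of brown adipocytes, had 3723 to 7455 CPM in WT and 1841 to 3208 CPM in ATGLKO without overlap (log2 fold change -1.16, SE 0.23, adjusted p = 0.00211, edgeR). Elovl3, a fatty acid elongase induced by cold, fell from 37.3 ± 23.4 to 9.73 ± 6.47 CPM (adjusted p = 0.00803) with overlap, and was highest in WT replicates 2 and 3 like Ucp1. Slc25a20, the mitochondrial carnitine carrier, fell from 276 ± 45.7 to 137 ± 20.8 CPM (adjusted p = 0.000739), as did Mpzl2 and Mtus1 (log2 fold changes -1.39 and -0.90, adjusted p = 0.000353 and 0.00145). Cox8b, the brown fat form of a cytochrome oxidase subunit, had 761 to 2740 CPM in WT and 888 to 1498 CPM in ATGLKO (adjusted p = 0.338). Cox7a1 of the same list went the other way, also without a call, from 908 ± 404 to 1209 ± 366 CPM (SD, n = 4, adjusted p = 0.367, edgeR). S100b, a calcium-binding protein that promotes sympathetic innervation of brown fat, rose from 113 ± 29.2 to 710 ± 104 CPM (adjusted p = 6.47e-07), Ucp2 from 24.7 ± 4.76 to 133 ± 28.9 CPM (adjusted p = 1.48e-06) and Epsti1 from 2.90 ± 1.81 to 12.7 ± 1.68 CPM (adjusted p = 0.000521). Fabp3 and Kng2 were also called higher (log2 fold changes 1.03 and 1.14, adjusted p = 0.00968 and 0.00211, edgeR). Fgf21 had 1 count over all libraries and was not tested. Ucp2, unlike Ucp1, is abundant in macrophages, whose markers rose in the same mice, and their part in its change was not tested.

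Of 18 white adipocyte markers, 8 were tested, of which 2 were higher in ATGLKO and 6 were not called (25% called beside 21.0% of all genes), with 4 log2 fold changes above 0, 4 below and a median of -0.07. Lep, the adipocyte hormone leptin, had 0 to 6.59 CPM in WT and 39.3 to 62.6 CPM in ATGLKO (log2 fold change 4.89, SE 0.52, adjusted p = 8.51e-06, edgeR), and Dpt, a matrix gene also made by fibroblasts, rose from 30.0 ± 7.56 to 90.0 ± 26.7 CPM (adjusted p = 0.000151). Among the mature adipocyte markers, Adipoq had 749 to 1416 CPM in WT and 574 to 682 CPM in ATGLKO (adjusted p = 0.00606) and Plin1 424 to 869 CPM and 257 to 407 CPM (adjusted p = 0.0113), neither with overlap. Of all tested genes, 9.37% were likewise without overlap with ATGLKO below. The list did not move as one, with 1 gene called higher, 7 lower and 9 not called, and with 4 log2 fold changes above 0 and 13 below. The median log2 fold change of the 17 mature adipocyte markers was -0.39. That of Ucp1, which was not called, was -0.34 (SE 0.30), and a relation between them was not tested.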

How the data were processed

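Total RNA of BAT from 8 mice was sequenced. Per the methods of the study, the authors used bbduk for trimming, STAR for alignment to mm10 and HTseq-counts for counting, whereas the labels' tool list names Trimmomatic and HISAT2. Deposited counts are raw whole numbers per Ensembl gene. Deposited log2 values equal the log2 of the count over 1 factor per mouse, plus 1, and served 1 alternative.

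Counts were analysed in R 4.3.3 with edgeR 4.0.16 (filterByExpr at its defaults, TMM scaling, quasi-likelihood test on genotype alone, Benjamini-Hochberg adjustment over 8930 genes), after a check on simulated data. The SE is the size of the log2 fold change over the square root of F. Log2 CPM used a prior count of 2. limma 3.58.1 and DESeq2 1.42.0 gave alternatives. Depth was 2017697 to 3115956 counts. Replicates are taken as separate mice by number. The chi-square between any pair of the same genotype was 5.18 to 27.1 times that of counting error, so no pair differed by counting error alone. It cannot tell separate mice from separate preparations of the same mouse.

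The members and the 10 gene lists were chosen with earlier results of these data known. Genes named with values were the members, Pnpla2, in each list up to 3 called genes per direction with the smallest adjusted p, 13 genes fixed by their place in a list, and the 3 genes most like each member, and 2 of these genes are not reported here. Positions are from GENCODE and promoter sequences from RefSeq. The authors' own comparisons were not used.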

Additional observations from a re-analysis of the deposited data

Results flagged for a closer look

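In groups of 4 mice, a gap between an extreme mouse and its nearest neighbour that took up an unusually large part of the group's range (Dixon's criterion) marked a value as far from the rest, which chance alone does in about 5% of groups. None of the 10 members had such a mouse in either genotype. Of the 104 groups examined, 3 did, each in ATGLKO replicate 3, which is a smaller share than those 5%. The protein kinase A subunit Prkaca had a log2 CPM of 7.01 there against 6.44 to 6.51 in the other ATGLKO mice (gap 0.887), so that its lower level in ATGLKO was smallest in this mouse. Acvr1c, an activin receptor of adipocytes, had 5.50 against 5.76 to 5.80 (gap 0.883), and Tie1, an endothelial receptor, 4.76 against 4.27 to 4.32 (gap 0.903). The same mouse had the highest Dio2 and Adrb1 levels of all 8.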

How the results depend on the processing

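Over 208 refits of single members, 185 kept the direction and the side of the threshold, 4 passed it newly, 2 lost it and 17 changed sign. Of the members called, 1 in the analysis as reported, there were 2 when scaled to the mature adipocyte markers, 2 when a single count in any mouse sufficed, 0 with at least 10 counts in every mouse (where Dio2 was not tested), 2 at an adjusted p under 0.10, 2 with the short transcript share as a covariate and 0 to 2 with 1 mouse left out. The 10 called signalling genes became 17 when scaled to the adipocyte markers. The 7 called regulators became 13 on that scaling, 11 with limma voom and 3 to 11 with 1 mouse left out, and the 18 called effectors became 10 on that scaling.

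Scaling to the adipocyte markers moved the median log2 fold change of all genes to 0.43 and the higher share of calls from 63.6% to 94.2%, and total counts only moved them to 0.13 and 78.5%. On the adipocyte scaling the sign changed for Ucp1 (0.14), Ppargc1b (0.030), Prdm16 (0.33), Adcy3 (0.24) and Zic1 (0.14), each below that median. Prdm16 also changed sign with limma voom (0.024), limma trend (0.10), the muscle covariate (0.17) and the short transcript covariate (0.29), and without 1 mouse ranged from -0.47 to 0.28. Adcy3 changed with limma voom (0.070), the muscle covariate (0.022) and the short transcript covariate (0.061), and ranged from -0.58 to 0.22 without 1 mouse. Adrb1 ranged from -0.12 to 0.48 without 1 mouse. The cause was not tested. Both covariates and a thinning of counts to the smallest library were chosen after seeing the data.

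Correlations of same-numbered deviations were -0.09, -0.20, 0.30 and 0.24 for replicates 1 to 4. Replicate 4 had the highest mitochondrially encoded share of its genotype, 45.6% in WT and 42.6% in ATGLKO. It also had the lowest short transcript share, 5.64% and 6.09%. Whether mice of the same number were handled together was not tested. The replicate block gave 1 called member, 1719 called genes in place of 1872, and changed no call of a member. Dio2 had a log2 fold change of 1.54 with the block (adjusted p = 0.00186, edgeR). Prdm16, Zic1 and Dio2 had the fewest counts of the members, 6 to 161 per mouse.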
